A study of Mus musculus with 2 samples.

Results

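The proteasome genes described here are those whose annotated symbol starts with Psma, Psmb, Psmc, Psmd, Psme, Psmf or Psmg, together with Pomp. By that rule 50 genes, read by 104 probe sets, were found among the 18193 genes that had a probe set with a single gene symbol. RefSeq lists 52 protein-coding mouse genes under the same rule, and Psme2 and Psme2b are the 2 without a probe set of their own. The members were picked by name, though the naming rule was set with earlier results of these data known.

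Liver RNA of male C57Bl/6J mice, aged 9 weeks at the start, was compared between 2 pools on 1-colour Affymetrix arrays. All mice of both pools had eaten a sunflower oil diet poor in n-3 polyunsaturated fatty acids (n-6 to n-3 ratio 127.2) in an experiment of 112 days. In its last 10 days the DEF/FOS mice stayed on that diet and drank fructooligosaccharides, a fermentable fibre, at 0.25 g per day. The DEF/CT mice were given the soybean oil control diet instead, with a ratio of 6.9. The fibre and the oil therefore differ together between the pools, and their parts in any difference cannot be told apart. RNA of the mice of a group, 8 per group in the treatment protocol and 4 to 8 in the extract protocol, was pooled before labelling and measured on 1 array. There is no replicate, so no test and no p-value is given, and every difference lacks a measure of the spread between mice.

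The proteasome is the large protease that degrades proteins tagged with ubiquitin. Its barrel-shaped 20S core is built from outer rings of alpha subunits, which gate the entry, and inner rings of beta subunits, some of which carry the proteolytic sites. The 19S regulatory particle caps the barrel: its base holds a ring of ATPases that unfold the substrate, and its lid removes the ubiquitin chain. Immune cells, and other cells under interferon, make the immunoproteasome, in which Psmb8, Psmb9 and Psmb10 take the places of the catalytic subunits Psmb5, Psmb6 and Psmb7 and alter the peptides that reach MHC class I molecules. The liver carries both forms, and subunit genes can be raised together by the transcription factor NRF1, encoded by Nfe2l1, when proteasome capacity is short.

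Values are MAS5 signals in arbitrary units. A difference is the log2 signal of the DEF/FOS pool minus that of the DEF/CT pool, centred on the median over probe sets above a signal floor of 19.4, and the brightest probe set, by mean signal, stands for each gene. Above that floor lay 11163 genes and 47 of the 50 members, and all 47 also lay above the 75th percentile of signal, at 84.3, where the array is more precise. Signals of the 47 members ran from 118 to 3317. The 3 members below the floor were Psma8, an alpha subunit of the testis, Psmb11, the catalytic subunit of the thymus, and Psmc3ip, a factor of meiotic recombination that shares only the prefix of its name with the proteasome. Psma8 had signals of 12.0 in DEF/FOS and 13.9 in DEF/CT, Psmb11 12.1 and 22.1, and Psmc3ip 21.9 and 5.28. No fold is given for these 3 genes, since values around the floor have no order.

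The transcripts of the proteasome differed little between the pools. None of the 47 members was 1.5-fold apart in either direction, beside 4.01% higher in DEF/FOS by 1.5-fold or more and 2.77% lower among all 6751 genes above the 75th percentile, the range in which all 47 members lie. Among all genes above the floor these shares were 6.75% and 7.82%. At 2-fold the shares of all genes above the floor were 1.74% higher and 2.19% lower. A smaller threshold was set at 25% higher or, its reciprocal, 20% lower. Past it, 6 of 47 members, or 12.8%, were higher in DEF/FOS and 0 lower, against 17.5% and 18.8% of all genes. Among the genes above the 75th percentile the shares were 14.6% higher and 11.2% lower, so the members' 12.8% lies near that background. The member furthest apart was Psma5, 1.34-fold higher in DEF/FOS.

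On balance the members lay slightly above 0. The difference was positive in 31 of 47, or 66.0%, against 49.9% of all genes above the floor and 53.6% of those above the 75th percentile. The median over the members was 0.08, a 1.06-fold difference, beside 0.02 over all genes above the 75th percentile. The middle of the members ran from -0.03 at the lower quartile to 0.18 at the upper quartile, and that of all genes above the 75th percentile from -0.15 to 0.20. The whole range of the members was -0.27 to 0.42, with an SD across genes of 0.17 against 0.35 for all genes above the 75th percentile. Of the 32 members with a mean signal past the 90th percentile, at 313, 24 were positive, 4 were at least 25% higher and 0 at least 20% lower, where the background was 54.2% positive, 11.7% higher and 9.35% lower.

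**Figure D1:**
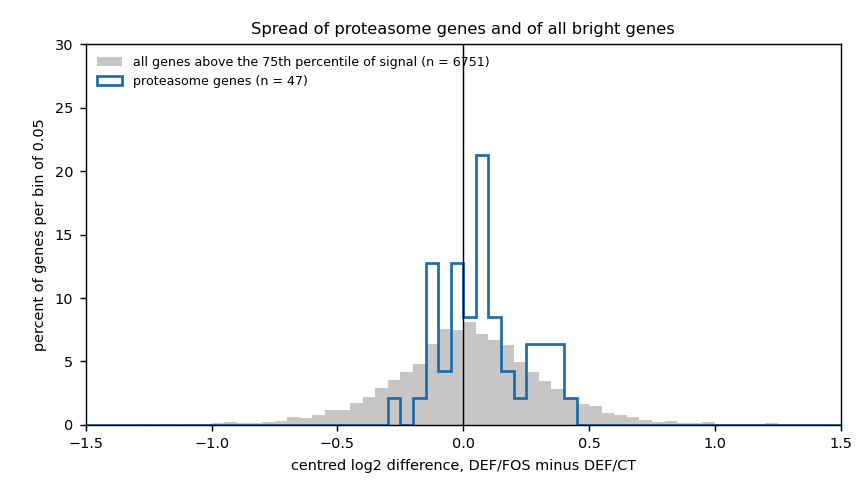
Histogram of centred log2 differences (DEF/FOS minus DEF/CT) in bins of 0.05, as percent of genes, for 47 proteasome genes (blue outline) and for all 6751 genes above the 75th percentile of signal (grey), which include them. The blue outline spans -0.27 to 0.42 around a median of 0.08, and the grey distribution is wider on both sides; genes beyond 1.5 on either side are not drawn.

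The only spread these files give is that between probe sets of the same gene, which is technical. Its SD was 0.22 over 2302 genes with more than 1 probe set above the 75th percentile and 0.15 over the 15 members with more than 1 such probe set. In 35 of the 47 members the difference was smaller than 0.22. In 7 of these 15 members the probe sets stood on both sides of 0, namely Psmb3, Psmc4, Psmc6, Psmd11, Psmd13, Psme4 and Psmg2. Most single subunits thus differed by less than probe sets of the same gene differ among themselves.

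Markers of other cells give the makeup of the pools. All 8 skeletal muscle markers, such as the actin Acta1, were lower in DEF/FOS, with a summed signal of 71.2 against 2275, and 7 of them lay below the floor there. All 8 hepatocyte markers lay between 20% lower and 25% higher by their brightest probe sets, with a summed signal of 72850 against 77660. Of 8 pan-leukocyte and antigen-presenting cell markers, 2 were at least 25% higher and 0 at least 20% lower, and their summed signal was 1938 in DEF/FOS and 1908 in DEF/CT. All 6 Kupffer cell markers were positive, at 2309 against 1907 in sum, and the neutrophil markers S100a8 and S100a9 stood at 147 against 33.8 and 110 against 35.1, while Ngp stood at 32.5 against 30.6 and Camp and Ltf lay below the floor in both pools. Of T and NK cell markers only Cd8a and Nkg7 were above the floor, at 20.2 against 32.9 and 24.1 against 25.9, and of B cell markers only Cd79b and Ms4a1, at 25.7 against 35.1 and 14.9 against 36.8. The part of these cells in the proteasome values was not tested, and fewer cells of a type cannot be told apart from less RNA per cell.

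Every member of the alpha ring lay above 0 by its brightest probe set, and Psma3 was at -0.06 with the median over its probe sets above the floor. The 7 genes of the ring, Psma1 to Psma7, encode the gate through which substrates reach the core. Psma5 had a signal of 2054 in DEF/FOS and 1548 in DEF/CT, a difference of 0.42, and its other bright probe set gave 0.31. Psma6 had 2157 against 1685, a difference of 0.37, but its other probe sets above the 75th percentile gave 0.10 and 0.06. Psma7 had 1045 against 833, a difference of 0.34, with 0.22 from its other probe set. By their brightest probe sets these 3 genes were at least 25% higher. Their other probe sets above the 75th percentile were positive but fell short of that threshold. Of all genes above the 75th percentile, 53.6% were positive and 14.6% at least 25% higher. The brightest probe set of Psma6 is of the _x_at type, and without _x_at and _s_at probe sets Psma6 stood at 0.10.

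The remaining alpha subunits differed by less. Psma2 had signals of 1222 and 1077 in DEF/FOS and DEF/CT, a difference of 0.20. Psma1 stood at 1467 against 1387, Psma3 at 2916 against 2719 and Psma4 at 1651 against 1559, each with a difference between 0.10 and 0.12. The median of the ring was 0.20, a 1.15-fold difference, and it was 0.10 with each gene taken as the median of its probe sets above the floor in place of the brightest.

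The constitutive beta ring went the same way to a smaller extent, with 5 of 7 members positive, a median of 0.08 and a range from -0.04 to 0.36. The positive share of all genes above the 75th percentile was 53.6%. Psmb5, which carries the chymotrypsin-like site, had a signal of 1128 in DEF/FOS and 890 in DEF/CT, 1.28-fold higher with its single probe set. Psmb4, a structural subunit, had 2537 against 2106, a difference of 0.28 with 0.12 from its other probe set. The other catalytic subunits lay closer together: Psmb6, of the caspase-like site, had 1213 against 1158, and Psmb7, of the trypsin-like site, 3317 against 3275. Psmb2 stood at 316 against 288. Psmb1 at 1181 against 1196 and Psmb3 at 1056 against 1100 were the members below 0, and Psmb3 was positive, at 0.10, by its other probe set.

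**Figure D2:**
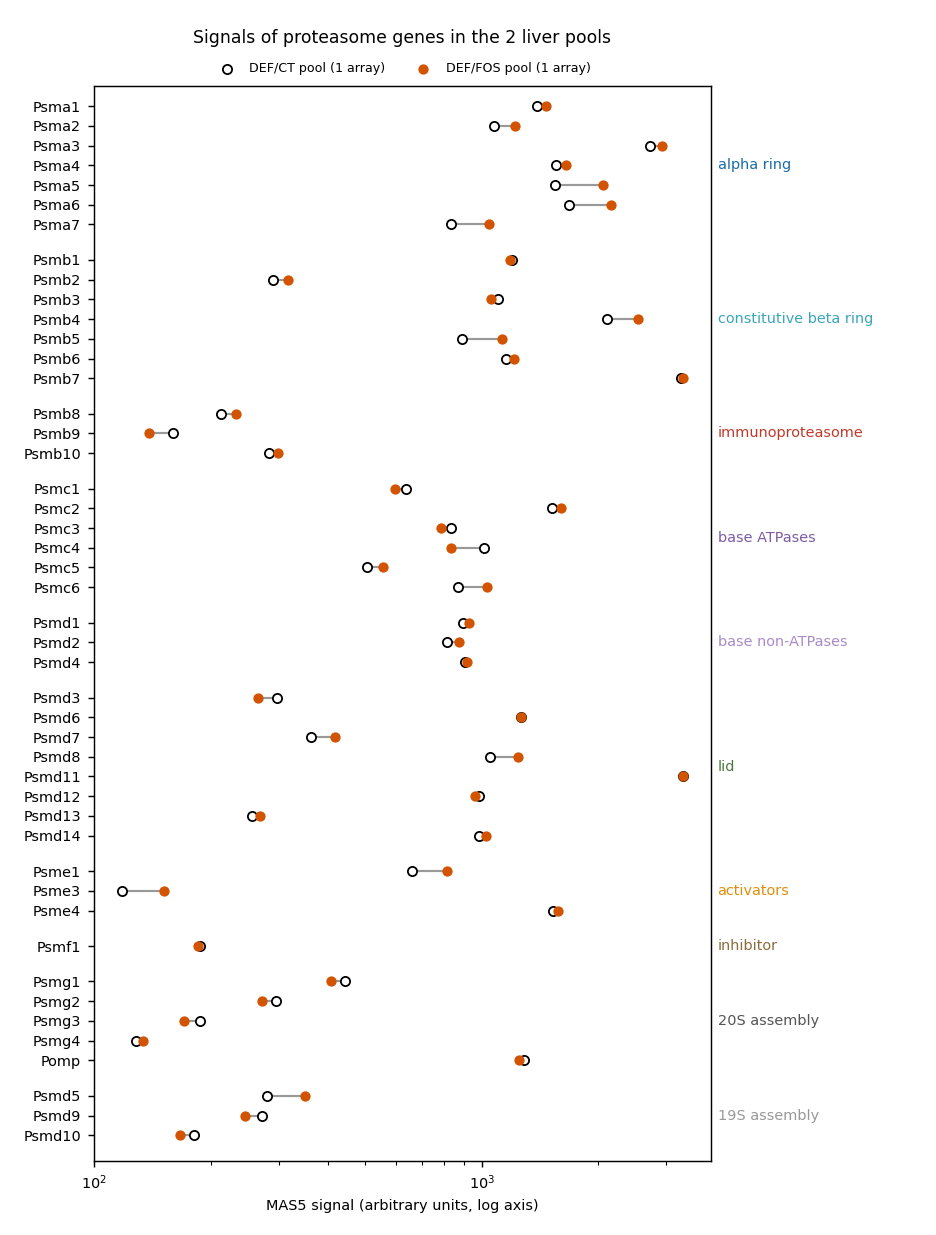
MAS5 signal (log axis, arbitrary units) of 46 proteasome genes above the floor in DEF/CT (open circles) and the DEF/FOS pool (orange), 1 array each, grouped by subcomplex; Psme3ip1, which is no subunit, is not drawn. The orange point lies to the right in all 7 alpha ring genes, and the gaps are short throughout, the widest being Psma5 at 2054 against 1548; signals of different genes are not comparable as levels.

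In all, 12 of 14 constitutive core genes were positive, with a median of 0.13 and 4 at least 25% higher. For the 19S particle the count was 12 of 17, with a median of 0.07, 0 at least 25% higher and 0 at least 20% lower. Among all genes above the 75th percentile 53.6% were positive, 14.6% at least 25% higher and 11.2% at least 20% lower. Of the 47 members together 66.0% were positive. The base ATPases Psmc1 to Psmc6, the unfolding motor, were evenly divided, with 3 positive and 3 negative and a median of 0.01. Psmc6 had a signal of 1032 in DEF/FOS and 866 in DEF/CT, a difference of 0.27, but its other bright probe set gave -0.07. Psmc4 went the other way at 832 against 1014, a difference of -0.27, the lowest of the 47 members, and its other bright probe set gave 0.15. These 2 widest ATPase differences were therefore not shared by a second probe set. Psmc5 stood at 558 against 504, Psmc2 at 1605 against 1523, Psmc3 at 784 against 833 and Psmc1 at 597 against 636.

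The non-ATPase subunits of the base, which form the scaffold and a ubiquitin receptor, were all within 0.12 by their brightest probe sets. Psmd1 had signals of 930 and 897 in DEF/FOS and DEF/CT, Psmd2 876 and 815, and Psmd4, the ubiquitin receptor, 915 and 906, while the other bright probe set of Psmd4 gave 0.24. The lid had 6 of 8 members positive, beside 53.6% of all genes above the 75th percentile, with a median of 0.05. Psmd8 was the highest of the lid at 1238 against 1051, a difference of 0.25, followed by Psmd7 at 417 against 362. Psmd14, the deubiquitinase of the lid, had 1028 against 984, a difference of 0.08. Psmd3 at 265 against 295 was the lowest of the lid with a difference of -0.14. Psmd6, Psmd11, Psmd12 and Psmd13 lay between -0.02 and 0.08. The other bright probe set of Psmd6 gave 0.16, those of Psmd11 0.17, -0.16 and 0.05, and those of Psmd13 -0.15 and -0.33.

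**Figure D3:**
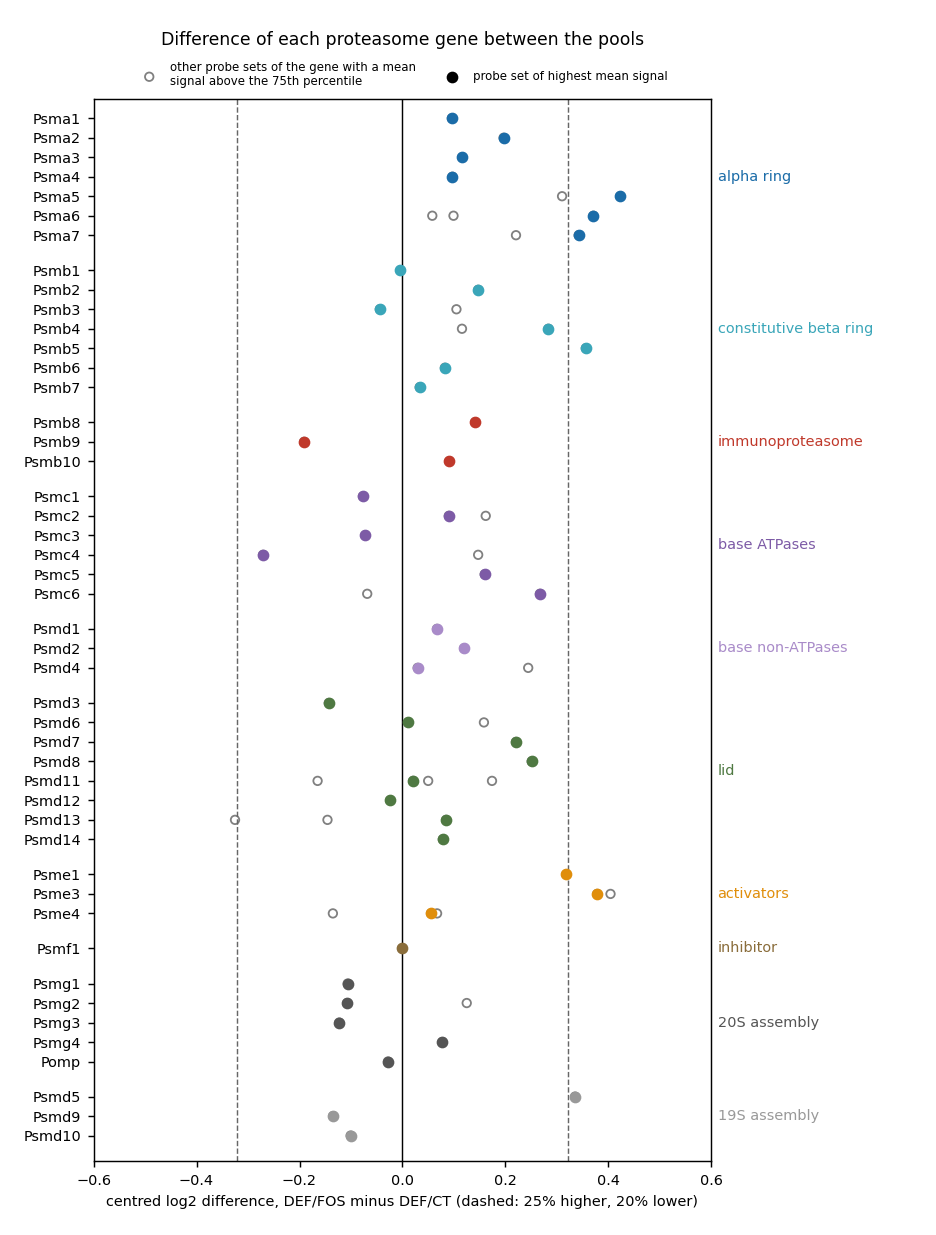
Centred log2 difference (DEF/FOS minus DEF/CT) of 46 proteasome genes by subcomplex, for the probe set of highest mean signal (filled) and for the gene's other probe sets above the 75th percentile of signal (open); dashed lines mark 25% higher and 20% lower. Filled points of the alpha ring all lie right of 0, those of the base ATPases lie on both sides, and the open points of Psmc4 and Psmc6 lie on the other side of 0 from their filled points.

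The activators open the core without the 19S particle. Of 4 listed, Psme2 had no probe set of its own, and the other 3 were positive by their brightest probe sets. The positive share of all genes above the 75th percentile was 53.6%. Psme3, which encodes the nuclear activator PA28 gamma, had a signal of 151 in DEF/FOS and 118 in DEF/CT, 1.30-fold higher, and its 2 bright probe sets gave 0.38 and 0.40. Psme1, which encodes PA28 alpha, the interferon-inducible partner of the immunoproteasome, had 814 against 659. Its difference of 0.32 fell just short of 25% higher, while Psmd5, at 0.34, lay just past it. Psme4, which encodes PA200, had 1575 against 1531, with differences from -0.14 to 0.07 over its 3 bright probe sets. The inhibitor gene Psmf1 had 185 against 187. Psme3ip1, whose product binds PA28 gamma and is no subunit, had 183 against 185.

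Of the assembly factors, 6 of 8 were negative and 2 positive by their brightest probe sets, with a median of -0.10. Among all genes above the 75th percentile 53.6% were positive. The 6 negative differences ran from -0.13 to -0.03, all smaller than the SD of 0.22 between probe sets, and none was 20% lower. For the chaperones that build the core, Psmg1 had signals of 408 and 443 in DEF/FOS and DEF/CT, Psmg2 271 and 295, and Psmg3 170 and 187. Their differences were between -0.12 and -0.11, and the other bright probe set of Psmg2 gave 0.12. Psmg4 was positive at 133 against 128. Pomp, which escorts the beta subunits into the ring, had 1247 against 1285. Among the chaperones of the 19S base, Psmd9 stood at 245 against 271 and Psmd10, also known as gankyrin, at 167 against 180. Psmd5 went the other way at 349 against 279, 1.26-fold higher with its single probe set.

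The promoters were searched for the core of the antioxidant response element, TGACNNNGC, the sequence that NRF1 and NRF2 bind, on both strands of the 300 bases from 250 before to 50 after each RefSeq start (build GRCm38.p6). A promoter entry was matched for 42 members, and 6 of them held a match, against 3781 of 27025 genes over all entries, which is a like share. The 6 were Psmb5, Psmb6, Psmc6, Psmd9, Psmd12 and Psme4, with differences from -0.13 to 0.36. A match is a description of letters and not of binding. The 60 bases that end at the base before the start are shown for the highest and the lowest of these 6 genes, 5′ to 3′ on the strand of the gene with the match in capitals. Psmb5 lies at chr14:54617996-54618055 on the minus strand, with the match starting 47 bases before the start, and Psmd9 at chr5:123228130-123228189 on the plus strand, with the match starting 31 bases before it.
Psmb5: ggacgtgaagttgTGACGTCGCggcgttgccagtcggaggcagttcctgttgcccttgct
Psmd9: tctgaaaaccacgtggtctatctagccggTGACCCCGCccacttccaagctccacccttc
Both hold the same core close to the start, and their differences were 0.36 and -0.13. Because these genes were picked as the highest and the lowest, their opposite directions follow from that choice. The other genes with a match were Psmc6 at 0.27, Psmb6 at 0.08, Psme4 at 0.06 and Psmd12 at -0.02. Any part of the element in these differences was not tested.

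The immunoproteasome subunits had a median difference near that of their constitutive counterparts. Psmb8 had a signal of 232 in DEF/FOS and 212 in DEF/CT, Psmb9 139 and 160, and Psmb10 297 and 282. The differences were 0.14, -0.19 and 0.09, with 0 of 3 past the smaller threshold, and the median of 0.09 lay beside 0.08 for Psmb5, Psmb6 and Psmb7. Psmb8 had a second, dim probe set above the floor that gave -0.60, and with the median over probe sets the median of the 3 genes was -0.19. Set against its counterpart on the same array, Psmb8 relative to Psmb5 was 1.16-fold lower in DEF/FOS than in DEF/CT and Psmb9 relative to Psmb6 1.21-fold lower, whereas Psmb10 relative to Psmb7 was 1.04-fold higher. These ratios compare each pair between arrays and are no measure of how much of either subunit the liver makes. Of the 8 pan-leukocyte and antigen-presenting cell markers, 5 were positive and 3 negative, with differences from -0.07 to 0.42. Their median was 0.07. Among them Ptprc stood at 191 in DEF/FOS against 150 in DEF/CT, and Cd74 at 341 against 362.

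Of the genes that work with the immunoproteasome in antigen presentation by MHC class I, 12 of 13 were negative by their brightest probe sets. Their median was -0.08, and most of these differences were smaller than the SD of 0.22 between probe sets. Past the smaller threshold, 3 were at least 20% lower and 0 at least 25% higher. The shares over all genes above the floor were 49.9% positive, 18.8% at least 20% lower and 17.5% at least 25% higher. Among those above the 75th percentile 11.2% were at least 20% lower. A count of 3 in 13 is too small to be set apart from these shares. Tap1, a subunit of the peptide transporter that takes proteasome products into the endoplasmic reticulum, had a signal of 74.0 against 119, a difference of -0.67 or 1.59-fold lower by its 1 probe set above the floor. Pdia3 at 1394 against 1904 and Calr at 3666 against 4724, both general folding factors of the endoplasmic reticulum, were the others at least 20% lower. Erap1, the peptide-trimming protease, was the positive member at 216 against 177, with -0.16 from its other bright probe set, and Tap2 stood at 65.8 against 80.7. The interferon-responsive regulator Irf1 had 227 against 238. The list also holds H2 genes of near-identical families, whose probe sets may read related genes. Over probe sets above the floor, H2-K1 ran from -0.11 to 0.15 and H2-D1 from -1.59 to 0.35. The 2 probe sets of Tapbp gave -0.08 and 0.43.

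**Figure D4:**
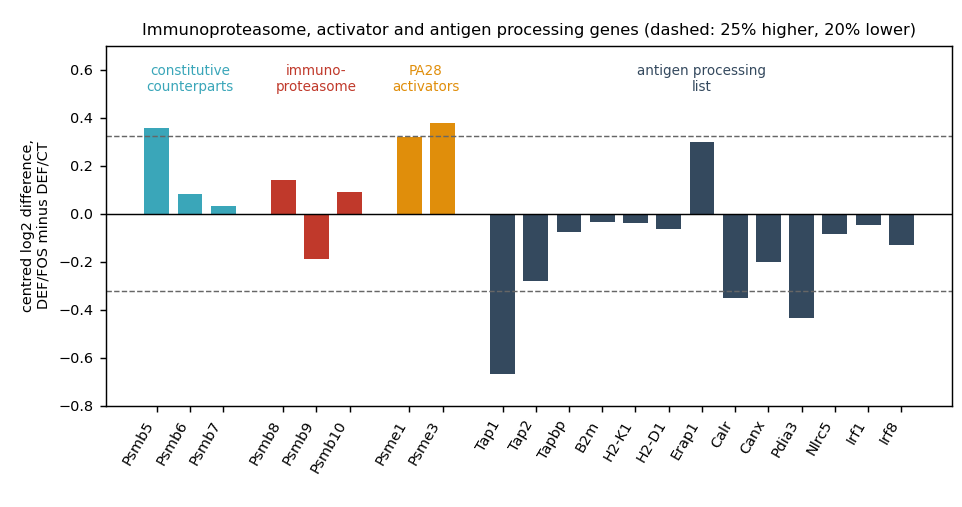
Centred log2 difference (DEF/FOS minus DEF/CT, 1 array each, bars from 0, dashed lines at 25% higher and 20% lower) of the constitutive catalytic subunits, the immunoproteasome subunits, the PA28 activators and 13 MHC class I processing genes. The immunoproteasome bars lie between -0.19 and 0.14, Psme1 and Psme3 stand at 0.32 and 0.38, and Tap1 is the lowest bar at -0.67.

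Psmb9 and Tap1 are neighbours in the MHC region of chromosome 17 and are read in opposite directions from starts with 225 bases between them. In GRCm38.p6, as RefSeq annotates it, Psmb9 starts at position 34187330 on the minus strand and Tap1 at 34187556 on the plus strand. The stretch between both starts, chr17:34187331-34187555, is shown because both genes are read outwards from it, on the plus strand, 5′ to 3′ towards Tap1.
Psmb9-Tap1: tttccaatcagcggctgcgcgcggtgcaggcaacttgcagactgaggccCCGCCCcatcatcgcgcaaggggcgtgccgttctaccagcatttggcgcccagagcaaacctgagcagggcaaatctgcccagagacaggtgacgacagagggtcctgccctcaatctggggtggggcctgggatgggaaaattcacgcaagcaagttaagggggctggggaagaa
Capitals mark the 1 match to the GC box GGGCGG on either strand, a motif chosen after the data had been seen, which 31.9% of all promoter stretches of this length hold. The stretch has 61.3% G and C. The interferon-stimulated response element core, searched on both strands, was found in 11.9% of the 42 members' 300-base windows against 3.99% of all genes. That share rests on 5 genes, Psmb3, Psmd4, Psmd9, Psme1 and Psmg4, with differences from -0.13 to 0.32. The matches of Psme1 and Psmg4 begin after the start, at bases 10 and 16. Such a match describes letters and not binding, and an excess over all genes was not tested. The windows of Psmb8, Psmb9 and Psmb10 held no match. Of the pair, Tap1 at 1.59-fold lower was past the threshold of 20% lower, and Psmb9 at 1.14-fold lower was not.

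Among the genes that feed and control the proteasome, 14 of 23 above the floor were positive, beside 49.9% of all genes, with a median of 0.05. Of these, 3 were at least 25% higher and 0 at least 20% lower, beside 17.5% and 18.8% of all genes above the floor, so the count of higher genes does not exceed the background share. Nfe2l2, which encodes the stress regulator NRF2, had a signal of 935 in DEF/FOS and 634 in DEF/CT, 1.49-fold higher, with 0.58 and 0.30 from its 2 probe sets above the floor. Zfand2a, a heat- and arsenite-inducible partner of the 19S particle, had 154 against 107, 1.45-fold higher with all 3 probe sets above the floor positive. Usp14, the deubiquitinase that sits on the base, had 390 against 281, 1.40-fold higher, but its 4 probe sets ran from -0.09 to 0.49.

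By their brightest probe sets, the other genes of that list lay between 20% lower and 25% higher. Other probe sets of some of them, also above the 75th percentile, lay past these bounds on either side. Nfe2l1, which encodes NRF1, had 114 against 125, a difference of -0.12. Sem1, a small lid subunit outside the naming rule of the members, had 839 against 693, with probe sets on both sides of 0, and Nploc4, a cofactor of the segregase that pulls substrates out of complexes and membranes, had 191 against 158.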

How the data were processed

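The authors deposited 1 MAS5 intensity per array for each of 45101 probe sets, not on a log scale, and the submitters' processing notes name MAS5 and GCOS without a version. The authors' values had a trimmed mean of 100.00 in both arrays with 2% left out at each end, and medians of 19.6 (DEF/FOS) and 22.0 (DEF/CT). The table holds no detection calls. With 1 array per group, their number limits the precision.

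Signals were taken to log2 without an offset, subtracted and centred on the median (-0.01) over probe sets above the floor, the median mean-signal of the probe sets other than 64 controls. Gene names came from the platform's annotation. All 50 member symbols were current in RefSeq (GRCm38.p6). The comparisons, run in Python 3.11.15 with pandas 2.3.3 and numpy 2.4.6, were counts past 25% higher or 20% lower and past 1.5- and 2-fold. The steps were checked on made data with known folds. The members, lists and thresholds were chosen with earlier results of these data known. All members could be named. Of the ubiquitin and antigen processing lists, the rule took the 5 largest differences and genes set by name, of which Nfe2l1, Nfe2l2, Sem1, Tap1 and Irf1 are given. Some genes of these lists are not reported here.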

Additional observations from a re-analysis of the deposited data

How the results depend on the processing

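With 1 array per group no spread between animals can be measured, the table gives no background by which to call a probe set present, and precision falls at low signal, with an SD between probe sets of 0.38 above the floor and 0.15 above the 90th percentile. No paired analysis was possible because each group has 1 array. The median over the proteasome genes stayed positive in all 9 alternatives, from 0.05 to 0.13, and so did those of the alpha ring (0.10 to 0.25), the core (0.09 to 0.19) and the 19S particle (0.04 to 0.12), while that of the assembly factors stayed negative (-0.13 to -0.05). That of the base ATPases took the other sign in 5. Of the 47 members, 14 took the other sign in at least 1 alternative, and 6 with the median over probe sets (Psma3, Psmb3, Psmb8, Psmc6, Psmd13 and Psmg2). A value counted as moved where it shifted by more than the SD between probe sets above the 75th percentile, 0.22, divided by the square root of the number of members, or a count by more than 1.5 times.

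Without a floor the median over the members was 0.13, that of the 19S particle 0.12 and that of the ubiquitin list 0.11, with 10 members at least 25% higher and 1 at least 20% lower, and 1 each at 1.5-fold. The members added there are Psma8, Psmb11 and Psmc3ip, all below the floor, and the centring also moved. The 19S particle and the ubiquitin list gained no gene, at 17 and 23, so their medians moved with the centring alone. Psmb4, Psmc6 and Psme1 passed 25% higher through the centring. Over all 18193 genes there, 4706 were at least 25% higher and 5046 at least 20% lower. The ubiquitin list had a median of 0.00 (0.0025) after quantile normalization. In that setting 3 of the 47 proteasome genes were at least 25% higher, in place of 6, beside 1936 of all 11163 genes. The floor at the 90th percentile was chosen after seeing the data. It left 3 of 32 proteasome genes at least 25% higher, beside 292 of all 2867 genes. With the main centring, 4 of these 32 were. The activators had a median of 0.16 with that floor. With the median over probe sets, the alpha ring stood at 0.10, the immunoproteasome at -0.19 and its difference from the counterparts at -0.27 in place of 0.01. Leaving out 1 member in turn gave -0.05 to 0.12 for the immunoproteasome, 0.19 to 0.35 for the activators, -0.12 to 0.12 for the 19S assembly factors and -0.13 to 0.034 for the difference between immunoproteasome and counterparts. Each of these lists has 3 members: without Psmb8 or Psmb10 the median of the immunoproteasome was negative (-0.05 and -0.02), and without Psmd9 or Psmd10 that of the 19S assembly factors was positive (0.12 and 0.10).

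Counts over all genes moved with the floor and the offset, by more than the number of genes tested alone. Without a floor 4706 were higher and 5046 lower past 25% and 20%, 2856 and 3546 at 1.5-fold, and 1661 and 2322 at 2-fold. With the floor at the 75th percentile these were 880 and 851, 244 and 212, and 59 and 28, and at the 90th percentile 292 and 305, 75 and 71, and 26 and 8, with centring repeated on the genes left. With an offset of 32 added, which draws low signals together, they were 1245 and 1222, 278 and 258, and 55 and 40.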
